A study of Vitis vinifera with 2 samples.

Results

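Novel_mir_89 and novel_mir_136 are 2 of the 299 predicted miRNA entries in a table of small RNA reads from grapevine (Vitis vinifera). They were chosen by their read counts in the cold-treated (CT) and the non-cold-treated (NCT) library, one being higher and the other lower in CT. These counts are therefore described here without a test. In the article the same sequences carry the names novel_mir_65 (novel_mir_89 here) and novel_mir_13 (novel_mir_136 here), which in the table belong to other sequences, so the table's names are used throughout. The CT library was made from micropropagated plantlets of the cultivar Muscat Hamburg, 6 weeks old, held at 4°C for 4 h. The NCT library was made from plantlets of the same age kept at 26°C and taken at 0 h. Each library pooled 3 plantlets and there was 1 library per condition, so no difference below has a replicate check. The sample labels name the tissue as leaf and the methods as the shoot apex with a developed leaf, and no tissue marker was checked, since the table lists miRNAs only.

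In plants, a miRNA gene is transcribed into a long RNA that folds back on itself, and a Dicer-like enzyme cuts a short duplex out of the hairpin stem. One strand of the duplex, the mature miRNA, is loaded into an Argonaute protein and guides it to mRNAs with a nearly complementary site, which are then cleaved or less translated. The other strand, the star, is mostly degraded. The base at the 5′ end bears on the loading, and in Arabidopsis AGO1 binds mainly small RNAs that start with U. Cold is known to change the levels of several conserved plant miRNAs.

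Both mature sequences were 21 nt long, which was the length of 221 of the 299 entries. They are shown because all comparisons below refer to them, with bases 2 to 8 from the 5′ end (the seed) in capitals.
novel_mir_89 mature: gUCAACCAgcaacucucgcgg
novel_mir_136 mature: uGCCAAGAagcacauuccucc
Novel_mir_136 started with U, as did 183 of the 299 entries (written T in the table). Novel_mir_89 started with G, which only 13 of the 299 entries did, and it was the single entry with this first base among the 20 that were listed in both libraries with over 10 TPM (transcripts per 1000000 clean reads) in at least one of them. Of the 21 bases, 13 were G or C in novel_mir_89 and 11 in novel_mir_136.

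The precursor sequences are shown because the table names an arm for each miRNA and the hairpins of both differ. Capitals mark the mature sequence, nearer the 5′ end, and the star on the opposite arm.
novel_mir_89 precursor: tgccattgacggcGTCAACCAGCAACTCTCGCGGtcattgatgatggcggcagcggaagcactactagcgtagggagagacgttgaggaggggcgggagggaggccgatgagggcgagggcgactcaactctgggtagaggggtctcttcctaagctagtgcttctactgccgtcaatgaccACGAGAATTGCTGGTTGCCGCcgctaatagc
novel_mir_136 precursor: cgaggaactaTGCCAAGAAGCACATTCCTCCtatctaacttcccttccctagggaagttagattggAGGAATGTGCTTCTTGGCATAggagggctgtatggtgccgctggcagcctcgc
The precursor of novel_mir_89 lies at chr17:2693545-2693757 on the minus strand of the 12X assembly of PN40024, within an intron, and its mature sequence covers 2693724 to 2693744. It was the only 1 of 65 precursors at hand that was annotated as intronic alone, and the gene that holds the intron was not analysed here. The precursor of novel_mir_136 lies at chr3:17003551-17003669 on the minus strand, between genes like 49 of the 65, with the mature sequence at 17003639 to 17003659.

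Novel_mir_89 was more abundant in the CT library. It was listed with 1357 reads in CT and 341 reads in NCT. Divided by the clean reads of each library (25915815 in CT and 21355400 in NCT), this is 52.4 TPM in CT (95% Wilson interval 49.6 to 55.2) and 16.0 TPM in NCT (14.4 to 17.8). The intervals cover counting error only, with PCR copies of a molecule counted as separate reads, and hold no spread between plantlets. They do not overlap, but this is no test, since the same counts chose the entry. The level was 3.28-fold higher in CT, a log2 (CT/NCT) of 1.71 with a counting standard error of 0.087. By reads it held the 9th place of the 192 entries listed in CT and the 21st of the 210 listed in NCT.

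Novel_mir_136 was less abundant in the CT library. It was listed with 661 reads in CT and 1195 reads in NCT, or 25.5 TPM (23.6 to 27.5) in CT and 56.0 TPM (52.9 to 59.2) in NCT. The level was 2.19-fold lower in CT, with a log2 (CT/NCT) of -1.13 and a counting standard error of 0.070. Its place among the listed entries was the 15th in CT and the 12th in NCT, so its place moved less than that of novel_mir_89. Of all reads in the table, novel_mir_89 took 1.39% in CT and 0.367% in NCT, and novel_mir_136 took 0.677% in CT and 1.29% in NCT.

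**Figure D1:**
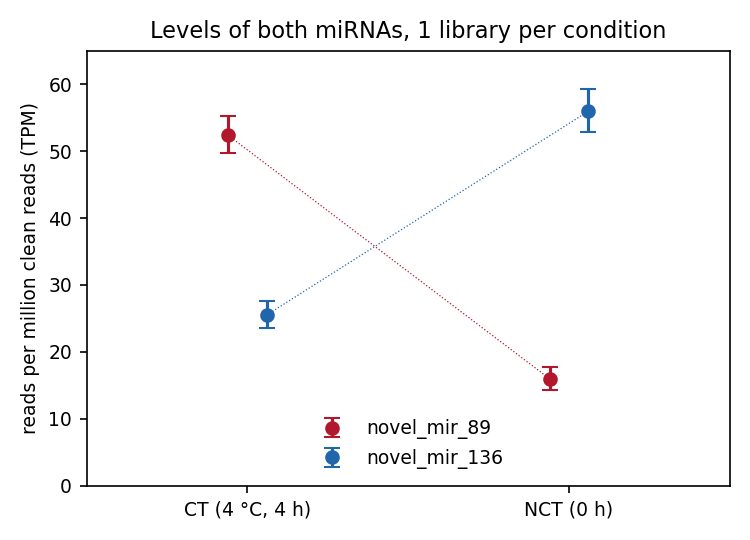
Level of novel_mir_89 (red) and novel_mir_136 (blue) in the CT and the NCT library, in TPM, with bars for the 95% Wilson interval of the count. Novel_mir_89 is at 52.4 TPM in CT and 16.0 TPM in NCT, and novel_mir_136 at 25.5 TPM in CT and 56.0 TPM in NCT, so the order of both miRNAs is turned round.

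The ratio of both miRNAs within a library does not depend on the library total. Novel_mir_89 had 2.05 reads for each read of novel_mir_136 in CT (95% counting interval 1.87 to 2.25) and 0.285 in NCT (0.253 to 0.322). Of the 2018 reads of both in CT, 67.2% belonged to novel_mir_89 (Wilson interval 65.2 to 69.3%), against 22.2% (20.2 to 24.3%) of the 1536 reads in NCT. The log2 of this ratio was higher by 2.85 in CT, or 7.19-fold, with a counting standard error of 0.11. This rise only restates the log2 ratios of both miRNAs, since one was chosen as higher and the other as lower in CT. Within a library, the level of different sequences also depends on how well each is ligated and amplified, which was not measured.

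Of the 103 entries listed in both libraries, 20 passed the limit of 10 TPM in CT, NCT or both, which is that of the study. The study applied this limit also to miRNAs found in a single library, which are left out of the counts here. Novel_mir_89 was the only one of them with a log2 (CT/NCT) over 1 (5% of 20), and novel_mir_136 was one of 3 under -1 (15.0% of 20). These shares only describe the table, since the same counts chose both miRNAs. With the median-of-ratios or TMM factors the balance was turned round, with 3 entries over 1, novel_mir_89 among them, and 1 under -1, which was not novel_mir_136. With clean reads, the 95% counting interval of novel_mir_136 (-1.27 to -0.997) also reached just inside the limit. Just outside the limit on the higher side was novel_mir_166, with 20765 reads in CT and 10867 in NCT and a log2 ratio of 0.66. On the lower side, novel_mir_174 (130 reads in CT and 343 in NCT) was at -1.68 and novel_mir_175 (1156 reads in CT and 1910 in NCT) just inside at -1.004, and novel_mir_57 (1294 in CT and 1844 in NCT) was outside at -0.79.

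Without the TPM limit, 4 of the 103 entries (3.88%) were over 1 and 18 (17.5%) were under -1. Then 2 entries had a higher ratio than novel_mir_89, both with few reads. Novel_mir_14 had 81 reads in CT and 13 in NCT, and novel_mir_5 had 78 in CT and 16 in NCT. A lower ratio than that of novel_mir_136 was found for 13 entries. The median log2 (CT/NCT) of the 103 entries was -0.41, and relative to this median novel_mir_89 stood at 2.12 and novel_mir_136 at -0.72.

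**Figure D2:**
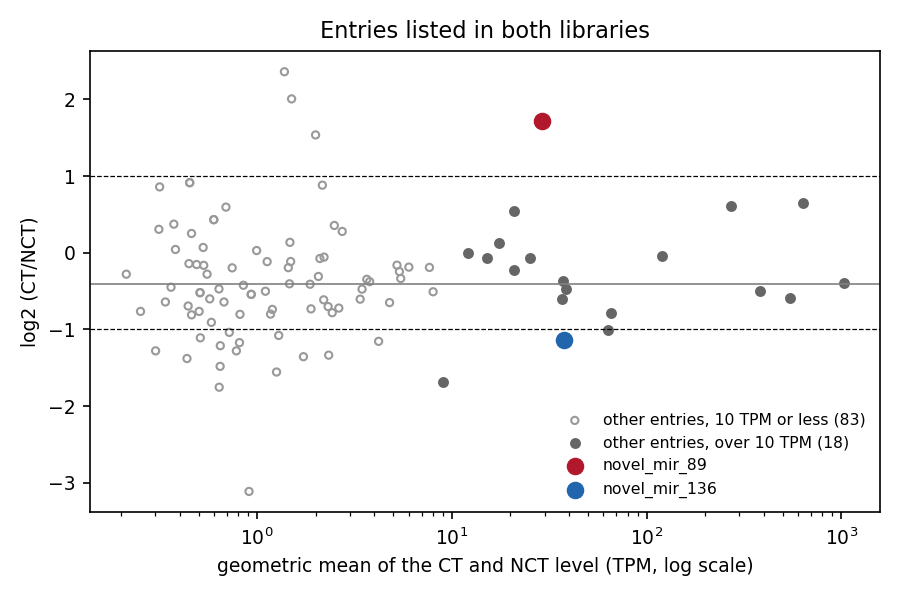
Log2 (CT/NCT) of the 103 entries listed in both libraries against the geometric mean of their 2 levels in TPM (log scale), with dashed lines at 1 and -1 and a grey line at the median of -0.41. Among the entries over 10 TPM (filled points), novel_mir_89 (red) is the highest at 1.71, and novel_mir_136 (blue) is at -1.13 with only novel_mir_174 below it.

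No other entry matched novel_mir_89 closely in level. By the distance in log2 TPM over the 2 libraries, the nearest were novel_mir_78 at 1.06 (654 reads in CT and 370 in NCT) and novel_mir_199 at 1.29 (639 in CT and 554 in NCT). The nearest to novel_mir_136 were closer, namely novel_mir_200 at 0.38 (773 in CT and 969 in NCT) and novel_mir_66 at 0.47 (851 in CT and 973 in NCT). Region labels were at hand only for the 65 predicted precursors, so the other entries are in no class here. Of these 65, 36 intergenic predicted miRNAs had reads in CT and NCT. Their log2 (CT/NCT) had a median of -0.38 and ranged from -3.11 to 2.36. Novel_mir_136, at -1.13, is one of these 36 and lay below that median, which is no test since it was chosen as lower in CT. Also of the 65, the 11 listed in both with another or no region label had a median of -0.35. Novel_mir_89 was the single intronic one among the 65, so its class gives no spread of its own.

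The direction of both miRNAs was the same with each library total tried, but the size of the ratio followed the total. Novel_mir_89 stayed past the limit with all 6 totals, with log2 (CT/NCT) between 1.71 and 2.13. Novel_mir_136 was past the limit with clean, raw and mapped reads (-1.13 to -1.11) and inside it with the sum of the listed reads (-0.92) and with the median-of-ratios and TMM factors (-0.72 each).

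**Figure D3:**
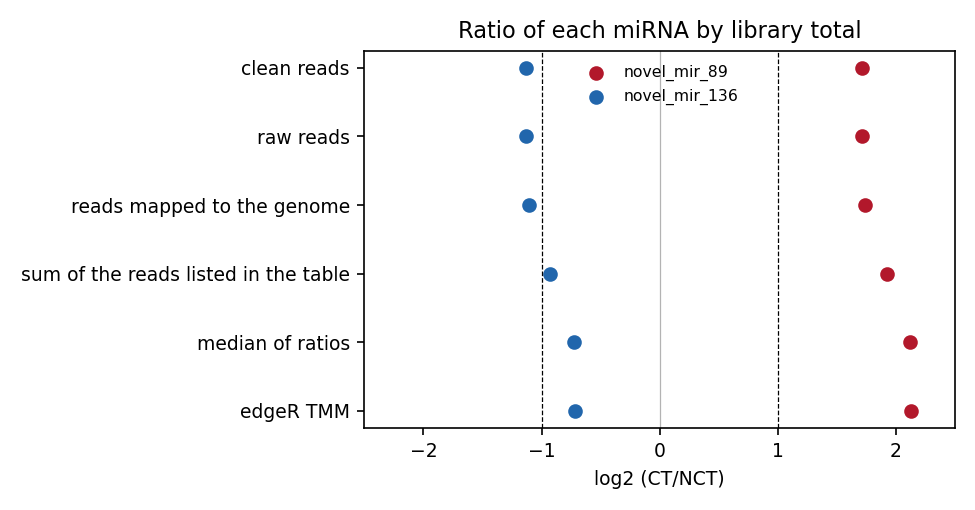
Log2 (CT/NCT) of novel_mir_89 (red) and novel_mir_136 (blue) with 6 choices of library total, listed from clean reads to edgeR's TMM, and dashed lines at 1 and -1. Red points lie right of 1 in all of them, and blue points pass -1 only with the upper 3.

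Each of the 2 sequences was listed with 1 precursor and on the 5p arm in both libraries, as were 45 of the 80 entries with a single precursor in each. No 3p entry was listed for their precursors, and the table names both arms for 0 of its 546 precursor numbers, so it holds no star reads to compare. The precursors folded differently with RNAfold at 37°C. That of novel_mir_89, 213 nt long with 59.2% G and C, formed 1 long hairpin of 80 base pairs and -114 kcal/mol, the second lowest energy of 65. That of novel_mir_136, 119 nt long with 52.9% G and C, had 47 base pairs in 2 hairpins and -80.6 kcal/mol, the 7th lowest. Per nt the order was turned round, with -0.535 kcal/mol for novel_mir_89 (place 5 of 65) and -0.677 kcal/mol for novel_mir_136 (place 2 of 65), against a median of -0.316 kcal/mol over the 65 precursors.

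**Figure D4:**
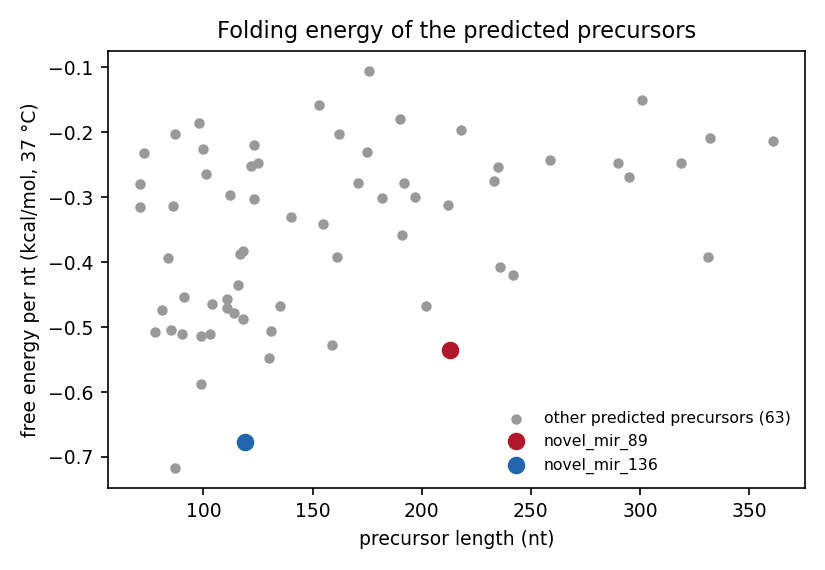
Free energy per nt at 37°C against length for the 65 predicted precursors. Novel_mir_136 (blue, 119 nt, -0.677 kcal/mol per nt) and novel_mir_89 (red, 213 nt, -0.535 kcal/mol per nt) lie near the lower edge, below the median of -0.316.

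The stems also differed around the mature sequence. In the hairpin of novel_mir_136, all 21 mature bases were paired, which held for 6 of the 65 precursors, inside an unbroken helix of 24 base pairs from base 8 to base 31. The median over the 65 was 10 base pairs for the longest helix, and 3 precursors had a longer one than novel_mir_136. After 1 unpaired base on each side, a helix of 13 base pairs ran up to the loop. In the hairpin of novel_mir_89, 18 mature bases were paired, and bases 2, 13 and 19 of the mature sequence each faced a single unpaired base of the other arm. Along the outer stem, helices of 2, 4, 5, 10, 5 and 6 base pairs followed one another, each separated by 1 unpaired base on both sides. With the star itself, 16 bases of novel_mir_89 and 19 of novel_mir_136 were paired. Over all paired mature bases, including those paired outside the star, 11 were in G:C pairs and 0 in G:U pairs in each. In both duplexes the star and the mature sequence left 2 nt free at their 3′ ends, the shape that Dicer-like enzymes are known to leave. For the mature end of novel_mir_89, this was counted from the nearest paired base. The star sequences were those given by the study, and the counts used here hold no star reads, so the shape was not checked in reads. The arms were 148 nt apart in novel_mir_89 and 35 nt apart in novel_mir_136, both more than the largest spacing named in the settings of the prediction.

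**Figure D5:**
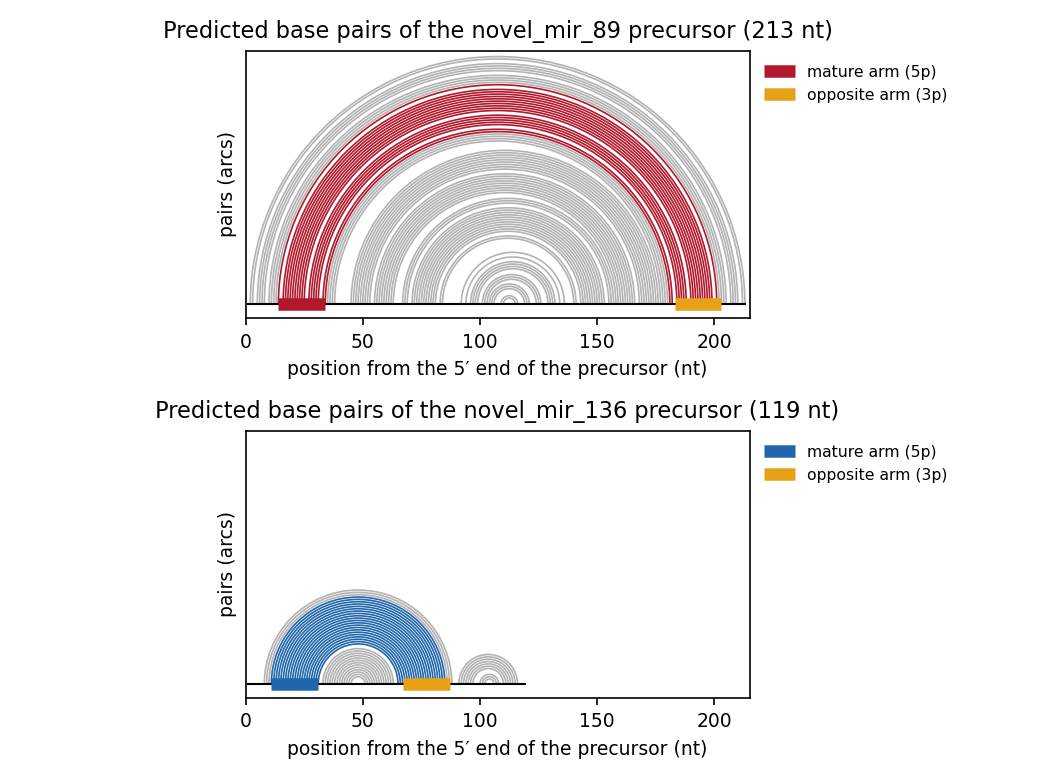
Predicted base pairs (arcs) along the precursors of novel_mir_89 (213 nt, upper panel) and novel_mir_136 (119 nt, lower panel), with the pairs of the mature bases in colour and both arms as thick bars. The coloured arcs of novel_mir_89 are broken at 3 bases, and those of novel_mir_136 form 1 block of 21 next to a small second hairpin.

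Neither sequence resembled another miRNA in the data. Against the other 298 entries, the longest shared run was 7 nt for each, and the best ungapped match over at least 18 nt had 6 mismatches. Against 162 known grapevine miRNAs, the best match had 9 mismatches for novel_mir_89 and 6 for novel_mir_136. The seed of each was shared by 0 other entries and 0 known miRNAs. The longest run that the mature sequences shared with each other was 4 nt.

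The list of predicted targets held 0 genes for novel_mir_89 and 3 for novel_mir_136, all annotated with DNA-binding or chromatin-related domains. GSVIVT01030666001 has a C-terminus rich in F and Y, a domain known from chromatin-modifying proteins. GSVIVT01030866001 encodes a MYB-like DNA-binding protein, of a large family of plant transcription factors. GSVIVT01031883001 carries a PHD finger, a domain that binds histone tails, and resembles MALE MEIOCYTE DEATH 1, which Arabidopsis needs for male meiosis. The sites are shown because the pairing can be read from them, with bases in capitals where they do not form an A:U or G:C pair with bases 1 to 20 of the miRNA.
GSVIVT01030666001 site: gaggaagugcuuUuuggca
GSVIVT01030866001 site: gaAgaaugugcuuUuugCca
GSVIVT01031883001 site: gaggaaugugUuGcuuggUU
The site in GSVIVT01030666001 had 18 A:U or G:C pairs, 1 G:U pair at base 7 of the miRNA, and 1 missing base opposite base 14. That in the MYB-like gene had 17 such pairs, 1 G:U pair at base 7 and mismatches at bases 3 and 18. That in the PHD-finger gene had 16, with G:U pairs at bases 2 and 10 and mismatches at bases 1 and 8. Bases 10 and 11, between which Argonaute is known to cut, were paired at all 3 sites, with a G:U pair at base 10 in the last. Levels of these mRNAs were not measured in the libraries, and no relation between their levels and novel_mir_136 was tested.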

How the data were processed

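Small RNAs of 18 to 30 nt from 1 CT and 1 NCT library were sequenced. The authors trimmed the reads, mapped them with SOAP2 without mismatch to the PN40024 genome (12X), took out matches to rRNA, tRNA and similar RNAs and to known miRNAs, and predicted further miRNAs with Mireap. They deposited raw read counts per mature sequence, without normalization, with the precursor number and arm. Tool versions are not given in the sources used here. No count between 0 and 5 was listed.

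The table holds 97572 reads in CT and 92912 in NCT, only 0.376% and 0.435% of the clean reads, so TPM was computed with the clean reads that the study gives for each library. With 1 library per condition, edgeR's quasi-likelihood test could not be fitted, and no p-value is given. Log2 ratios were computed for all entries listed in both libraries. The counting standard error of a log2 ratio follows from both read counts, and Wilson intervals are at 95%. Mature sequences were joined to the precursors, places, star and target sequences of the study's supplementary tables by the whole sequence. The copy used here holds 65 predicted precursors, and coordinates are as those tables give them. RNAfold (ViennaRNA 2.7.2) was used for all precursor structures.

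The members, lists and limits were chosen with earlier results of these data known. Entries named besides the members were those nearest the limit of 1 on the log2 scale, the 2 nearest in level to each member, and all predicted targets. Novel_mir_5, novel_mir_14, novel_mir_87, novel_mir_137 and novel_mir_174 fall outside this rule, and their values were known when they were picked. Alternatives were other library totals, a prior count of 5 reads, sums over a precursor, other limits, other folding settings and other match limits. Python 3.11.15, scipy 1.17.1 and R 4.3.3 with edgeR 4.0.16 were used.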

Additional observations from a re-analysis of the deposited data

How the results depend on the processing

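No paired analysis was possible because CT and NCT are single libraries. Of 47 alternative values, 27 stayed the same by the limits set and 20 moved. A change of direction was possible only for the log2 ratios of both miRNAs, and 0 of these changed direction. The sums over a precursor could not differ from the main value, since each miRNA had 1 precursor with no other entry in it. The log2 (CT/NCT) of novel_mir_89 was 1.92 with the sum of the listed reads, 2.12 with the median of ratios and 2.13 with edgeR's TMM. That of novel_mir_136 was -0.92, -0.72 and -0.72 with the same totals, where it was no longer past the limit. Entries over the limit of 1 numbered 3 with the median of ratios or TMM and 4 without the TPM limit, against 1 with clean reads. Entries under -1 numbered 1 with the sum of listed reads, the median of ratios or TMM, 1 at a log2 limit of 1.5 and 18 without the TPM limit, against 3. The free energy of the precursors was -136.5 (novel_mir_89) and -94.4 kcal/mol (novel_mir_136) at 26°C, and -183.6 and -124 kcal/mol at 4°C, with the pairing state of all 21 mature bases as at 37°C, unpaired ones included. With G:U counted as a mismatch, the sites had 2 (GSVIVT01030666001), 3 (GSVIVT01030866001) and 4 (GSVIVT01031883001) mismatches or gaps. The lowest count behind these values was 341 reads for novel_mir_89 and 661 for novel_mir_136, and the spread between replicate libraries was not measured.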

Other observations

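The nearest other predicted precursor to that of novel_mir_89 on chromosome 17 is that of novel_mir_87, at a distance of 3234346 nt. Novel_mir_87 had 8651 reads in CT and 4690 in NCT, with a log2 (CT/NCT) of 0.60, so its ratio had the same sign and lay inside the limit. The nearest to novel_mir_136 on chromosome 3 is that of novel_mir_137, at 921673 nt, which had 120 reads in NCT and was not listed in CT. The longest run complementary to another entry was 8 nt in novel_mir_89 and 9 nt in novel_mir_136.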
